A study of Rattus norvegicus with 4 samples.

Results

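Igf2 was examined in rat embryonic stem cells (ESCs) with and without Thop1, together with 9 other genes known as imprinted in mammals: Igf2r, Peg3, Peg10, Mest, Grb10, Dlk1, Plagl1, Impact and Ndn. The genes were taken by name from a count table of 34773 genes, and they were chosen with earlier results of these data known. Of the 10 names, 9 were found, and all 9 passed the filter on low counts that left 15028 genes to test. Peg10 had no row under its name. The count table held 1 wild-type (WT) library and 3 libraries labelled Thop1-KO, and the study asked how loss of Thop1, which encodes the zinc metallopeptidase thimet oligopeptidase, alters the ESC transcriptome. The control was the rat ESC line DA-5-3 carrying a GFP reporter at Rex1, and the Thop1-KO libraries were subclones #1, #2 and #3 derived from that reporter line with Cas9. All 4 cultures therefore shared the reporter, and were kept on feeder cells with LIF and inhibitors of MEK and GSK3. The series text calls the cells haploid, whereas the methods name DA-5-3 as a diploid line. The control was not replicated, so the spread in each test came from the 3 subclones alone, and p-values measure only the spread between these samples.

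In an imprinted gene, the copy from 1 parent is transcribed and the copy from the other parent is silenced. In most cases DNA methylation that was set in the egg or the sperm directs this. Many imprinted genes act on fetal growth, and they sit in clusters in which a methylated control region governs several neighbours. The growth factor IGF2 is made from the paternal copy, and the receptor IGF2R, which takes IGF2 to the lysosome, is made in mouse from the maternal copy. In mouse ESC cultures imprints are known to be unstable. RNA counts do not tell the parental copies apart.

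Library totals ran from 15405499 to 17936544 counts. Thop1 had 5500 counts in WT and 1843, 1635 and 2680 in #1, #2 and #3, and fell by 1.66 on the log2 scale (adjusted p = 0.0187). Among the subclones, #2 stood farthest from the others: a chi-square per degree of freedom over the genes was 66.7 for #1 against #2 and 43.9 for #2 against #3, but 22.4 for #1 against #3. The ESC label was met by Pou5f1, the gene of the core pluripotency factor OCT4, with 68758 to 85811 counts in every library, while Zfp42 (Rex1) was not found by name. The quasi-likelihood test of edgeR, adjusted by the Benjamini-Hochberg method, called 2072 of 15028 genes at an adjusted p under 0.05 (13.8%), with 1295 higher (8.62%) and 777 lower (5.17%) in Thop1-KO. Without #2 the calls rose to 3096 higher and 2476 lower, and without #3 they dropped to 354 and 103. Every adjusted p below is from this test over all genes unless another tool is named.

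Of the 9 imprinted genes, 3 rose in Thop1-KO (Igf2, Igf2r and Plagl1), 0 fell and 6 were not called. Of all genes tested, 8.62% were higher and 5.17% lower. The same 3 were called by DESeq2, which also gave 0 lower, and no further member had an unadjusted p under 0.05 in edgeR. The median log2 fold change of the 9 was 0.54, against 0.06 over all genes tested. The control lay below all 3 subclones for 4 members and above them for 2, whereas 38.1% and 37.6% of all genes tested lay below and above. All 3 calls were lost when #3 was left out, at adjusted p = 0.0638 for Igf2, 0.0515 for Igf2r and 0.118 for Plagl1, with log2 fold changes of 2.40, 3.05 and 4.64.

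**Figure D1:**
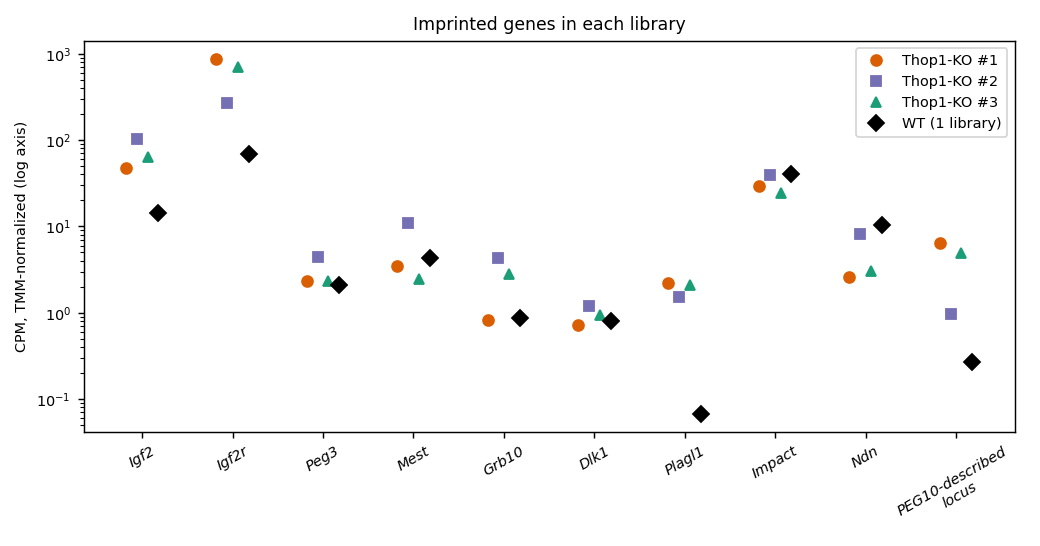
Counts scaled to library size (CPM, normalized by trimmed mean of M-values) on a log axis for the 9 imprinted genes and the locus described as PEG10, with 1 point for each library. WT lies below all 3 subclones for Igf2, Igf2r, Peg3, Plagl1 and the PEG10-described locus, and #2 is the highest subclone for 7 of the 9 named genes.

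The sequences at the starts of the 3 genes that rose are given first, since imprinted starts are known for dense CpG sites and for the hexamer TGCCGC, which the imprint-keeping zinc finger protein ZFP57 binds in mouse when it is methylated. RefSeq windows of 300 bases (250 before and 50 after a start, assembly GRCr8, printed 5′ to 3′ on the gene's strand) were available for all 10 names. Capitals mark the hexamer or its reverse complement GCGGCA. Igf2 had 2 starts on the minus strand, the first at chr1:207253931-207254230 and the second at chr1:207250426-207250725. Igf2r was at chr1:50526628-50526927 and Plagl1 at chr1:9297214-9297513, both on the plus strand.
Igf2, first start: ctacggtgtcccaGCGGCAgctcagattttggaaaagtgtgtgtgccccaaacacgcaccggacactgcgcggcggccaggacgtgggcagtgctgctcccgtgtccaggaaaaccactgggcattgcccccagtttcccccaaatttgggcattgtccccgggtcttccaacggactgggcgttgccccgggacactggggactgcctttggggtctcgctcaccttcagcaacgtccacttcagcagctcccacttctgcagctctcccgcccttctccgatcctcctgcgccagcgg
Igf2, second start: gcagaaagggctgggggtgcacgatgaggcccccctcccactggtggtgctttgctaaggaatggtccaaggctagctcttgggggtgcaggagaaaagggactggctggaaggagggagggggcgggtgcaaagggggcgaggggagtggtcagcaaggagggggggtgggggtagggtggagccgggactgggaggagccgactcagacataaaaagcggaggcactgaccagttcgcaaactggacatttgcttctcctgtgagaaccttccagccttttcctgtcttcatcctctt
Igf2r: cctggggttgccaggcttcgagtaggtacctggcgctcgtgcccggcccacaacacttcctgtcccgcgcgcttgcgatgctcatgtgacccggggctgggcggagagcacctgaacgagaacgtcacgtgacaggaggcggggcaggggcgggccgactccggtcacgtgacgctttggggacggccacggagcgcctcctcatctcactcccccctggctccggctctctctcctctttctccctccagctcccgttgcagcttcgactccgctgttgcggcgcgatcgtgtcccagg
Plagl1: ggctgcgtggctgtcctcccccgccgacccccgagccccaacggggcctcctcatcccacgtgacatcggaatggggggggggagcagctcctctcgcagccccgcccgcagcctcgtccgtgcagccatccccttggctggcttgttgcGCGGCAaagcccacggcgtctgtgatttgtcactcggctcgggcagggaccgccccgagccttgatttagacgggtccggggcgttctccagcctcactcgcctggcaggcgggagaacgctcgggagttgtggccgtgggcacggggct
The hexamer was present once, as its reverse complement, in the first Igf2 window from base 14 and in the Plagl1 window from base 151, and was not in the second Igf2 window or the Igf2r window. Of the 11 windows of the 10 names, 5 held it (Igf2, Plagl1, Grb10, Dlk1 and Peg10), against 11.7% of all 33469 windows. The hexamer itself holds a CpG, and these 5 windows had 19 to 45 CpG sites. No comparison with windows of like CpG content was made. CpG sites numbered 19 and 7 in the Igf2 windows, 30 in Igf2r and 29 in Plagl1, against a median of 7 over all windows. Grb10 and Dlk1, which were not called, held 44 and 45. A match in these windows describes letters only, and imprinting control regions often lie outside them.

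Igf2 rose about 5-fold. It is annotated on chr1:215828102-215846911, minus strand, in the coordinates of the deposited table, whose genome build is not given in the sources used here. Igf2 had 801, 1838 and 1153 counts in #1, #2 and #3 and 213 in WT. Thus every subclone was above WT, with #2 the highest and #1 the lowest of the 3. The level was 72.0 ± 28.9 CPM (SD, n = 3) against 14.3, a 5.02-fold ratio. The log2 fold change was 2.33 ± 0.51 (SE; 95% interval 1.11 to 3.54; adjusted p = 0.0328). The call was also lost with limma on log2(FPKM + 1), at an adjusted p of 0.0826. The annotated features inside Igf2, the microRNA Mir483 and the pseudogene AC098563.1, had a highest count of 0, and how reads shared with them were assigned was not tested.

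Igf2 moved across the libraries in the same order as the 2 collagen genes with the most counts among the fibroblast markers, WT below #1 below #3 below #2. Col1a1 and Col3a1, fibrillar collagens of connective tissue, had 5097, 9818 and 6713, and 271, 1414 and 663 counts in #1, #2 and #3, against 2829 and 95 in WT. Of 12 fibroblast markers, 10 were in the table and 8 were tested. None was called, although 3 had an unadjusted p under 0.05, DESeq2 called 1 (Col1a1), and edgeR without #1 or without #2 called 2. WT was below all subclones for 7 of the 8, and #2 was the highest subclone for all 8. Over all genes tested these shares were 38.1% and 39.5%, and 5110 of 15028 had an unadjusted p under 0.05. The summed level of the list was 330, 664 and 421 CPM in #1, #2 and #3 and 202 CPM in WT, while Lum and Thy1 had 0 counts in every library. Per 100 counts of the fibroblast list, Igf2 had 14.5, 15.7 and 15.2 counts in #1, #2 and #3, compared with 7.08 in WT. The 3 subclones were close together and WT was lower, but Col1a1 alone made up 83.6% to 94.0% of the list's counts, so this is mainly a ratio to Col1a1. Prrx1, a mesenchymal transcription factor gene, had 41, 76 and 32 counts against 8, and thus a different order among the subclones from that of Igf2. Against Col3a1 alone the ratio was 2.96, 1.30 and 1.74 in the subclones and 2.24 in WT, so WT lay inside their range. The cultures contained feeder cells whose species is not named in the methods, and their part in the Igf2 difference was not tested. In bulk RNA, fewer cells of a type and less RNA per cell cannot be told apart.

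A row 82038 bases beyond Igf2 gave the same order. Mir675 is a microRNA encoded within the maternally expressed noncoding RNA H19, which shares control elements with Igf2. H19 itself had no row by name, and the Mir675 row (chr1:215745981-215746064, minus strand) was chosen after its values were seen. It is shown as sequence because its 2 mature arms, from RefSeq, carry different seeds (bases 2 to 8, in capitals).
rno-miR-675-5p: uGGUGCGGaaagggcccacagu
rno-miR-675-3p: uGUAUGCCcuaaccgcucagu
The row had 384, 776 and 544 counts in #1, #2 and #3 and 114 in WT, so #2 was again highest and WT lowest. Its log2 fold change was 2.08 ± 0.47 (SE; adjusted p = 0.0360), and the call was lost without #3 (adjusted p = 0.0938). For every 100 Igf2 counts there were 47.9, 42.2, 47.2 and 53.5 Mir675 counts in #1, #2, #3 and WT. The libraries were made from poly(A) RNA cut into fragments, and which transcript over these bases gave the reads was not tested.

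Igf2r rose about 9-fold and had the highest FPKM of the 9 members in the subclones. It lies on chr1:48176106-48264477, plus strand. Igf2r had 14763, 4733 and 12673 counts in #1, #2 and #3 and 1032 in WT. Every subclone exceeded WT, but here #2 was the lowest subclone, 3.29-fold below #1. The level was 618 ± 316 CPM (SD, n = 3) against 69.4, an 8.90-fold ratio, with a log2 fold change of 3.15 ± 0.71 (SE; 95% interval 1.47 to 4.84; adjusted p = 0.0348). With limma on log2(FPKM + 1) the adjusted p was 0.0942. Per 100 fibroblast list counts Igf2r had 267, 40.3 and 167 counts in #1, #2 and #3, compared with 34.3 in WT, so it did not follow that list. The plot of library profiles shows Igf2 and the Mir675 row climbing toward #2 and Igf2r dropping there.

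**Figure D2:**
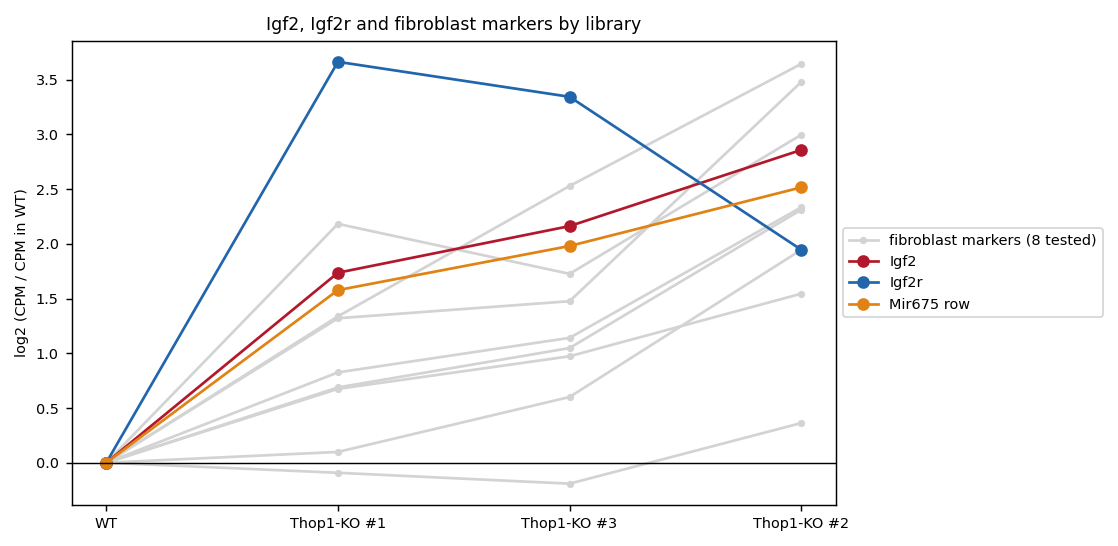
The log2 ratio of CPM to CPM in WT for Igf2, Igf2r, the Mir675 row and 8 fibroblast markers (grey), with libraries on the horizontal axis placed in the order of their Igf2 level. Lines join the values of a gene and are no time course. Igf2 and Mir675 are lowest in WT and highest in #2, whereas Igf2r is lower in #2 than in #1 and #3.

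Plagl1, which encodes a zinc finger transcription factor and is made from the paternal copy, was nearly silent in WT. It had 37, 27 and 38 counts in #1, #2 and #3 and 1 count in WT (chr1:7252349-7259035, plus strand). The subclones were close together, with a coefficient of variation (CV) of 18.9% against 17.1% from counting alone. The pooled ratio was 28.9 with a 95% interval of 5.07 to 1153 that covers counting error only. The fit gave a log2 fold change of 4.71 ± 1.01 (SE; adjusted p = 0.0308). The call was lost by limma when no filter was set on log2(FPKM + 1) (adjusted p = 0.110), and the gene could not be tested when 10 counts were required in every library.

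The 6 other members were not called. Grb10, an adaptor that restrains signalling from insulin and IGF receptors, had 14, 76 and 51 counts in #1, #2 and #3 and 13 in WT (log2 fold change 1.60 ± 0.99 SE, adjusted p = 0.292). The subclones spanned 5.15-fold, and #1 was at the level of WT. Mest, a paternally expressed gene of an α/β-hydrolase fold protein, had 58, 191 and 44 counts against 64, so that #2 alone exceeded WT. Its log2 fold change of 0.37 (95% interval -1.64 to 2.38) turned to -0.54 without #2. Peg3, a paternally expressed zinc finger gene, had 39, 79 and 42 counts against 31, and Dlk1, a transmembrane protein with EGF-like repeats that is paternally expressed, had 12, 21 and 17 against 12. Their log2 fold changes were 0.54 (95% interval -0.93 to 2.02) and 0.23 (-1.66 to 2.13), and for both genes #2 was highest.

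Impact and Ndn were the only members with WT above all 3 subclones. Impact, which restrains the amino acid sensor kinase GCN2, had 488, 690 and 433 counts in #1, #2 and #3 against 596 in WT (log2 fold change -0.38 ± 0.34 SE, adjusted p = 0.451). Here #2 had the larger raw count, but in CPM WT was at 40.1 and #2 at 39.0. Ndn, which encodes the growth-suppressing MAGE-family protein necdin, had 43, 146 and 54 counts against 153. WT and #2 were close, and #1 and #3 were lower. The log2 fold change of Ndn was -1.16 (95% interval -2.73 to 0.41, adjusted p = 0.255), and without #2 it was -1.88 and was called (adjusted p = 0.00303).

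**Figure D3:**
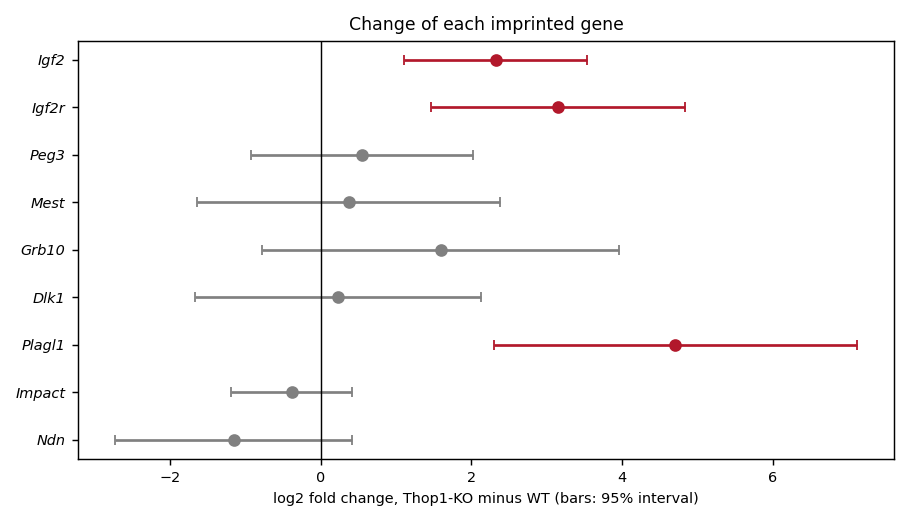
The log2 fold change of Thop1-KO over WT for each of the 9 imprinted genes, with 95% intervals from the edgeR fit, in red where the adjusted p was under 0.05. The intervals of Igf2, Igf2r and Plagl1 lie above 0, and those of the 6 other genes cross 0.

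Per transcript length, the order of the members changed between the groups. On the FPKM scale of the deposited values, the Thop1-KO order was Igf2r (mean 69.3), Igf2 (12.6), Impact (9.02), Mest (5.50), Ndn (2.84), Dlk1 (0.582), Grb10 (0.501), Plagl1 (0.414) and Peg3 (0.356). The ranges of neighbours overlapped over the 3 subclones except between Igf2r and Igf2 and between Ndn and Dlk1. Hence Igf2r stood alone at the top, 4 genes formed a middle range, and the last 4 lay under 1 FPKM. In WT Impact led at 11.8 FPKM, followed by Igf2r (7.80), Ndn (6.36), Mest (4.25) and Igf2 (2.51), an order that rests on 1 library.

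Several of these genes varied more among the 3 subclones than most genes did. The CV of CPM was 81.9% for Mest, 68.7% for Ndn, 65.4% for Grb10, 51.1% for Igf2r, 40.5% for Peg3 and 40.2% for Igf2, against a median of 23.4% over all genes. Dlk1 (24.9%), Impact (24.7%) and Plagl1 (18.9%) were near that median. For Mest and Ndn, the CV that counting error alone would give was 10.1% and 11.1%.

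Subclone #2 was the highest of the 3 for 7 of the 9 members, all but Igf2r and Plagl1, while 39.5% of all genes tested were highest in #2. A split by the parental copy known to be expressed in mouse, made after the values were seen, was then applied to the listed imprinted genes tested. Which copy was transcribed in these cells, or whether both were, was not measured, so the classes are labels from mouse only. Of 17 paternally expressed genes, #2 was highest for 14 and lowest for 3 (Plagl1, Sgce and Nnat). Of 13 maternally expressed genes it was highest for 2 (Grb10 and Ube3a) and lowest for 9, and 38.4% of all genes tested were lowest in #2. Among the 9, Slc22a18 had 2, 0 and 2 counts in #1, #2 and #3. Asb4 had 4, 4 and 17, so that #2 lay below #1 only after scaling, and both genes rest on few reads. On the log2 scale, CPM in #2 over the mean of #1 and #3 had a median of 0.71 for the 17 paternally expressed genes and -0.47 for the 12 maternally expressed genes with at least 10 subclone counts. Over 14766 genes with as many counts the median was -0.01. The largest ratios were in Mest (1.87), Dio3 (1.71) and Ndn (1.57), and the lowest in Sgce (-1.92), Igf2r (-1.57), Asb4 (-1.39) and Ppp1r9a (-1.31). These are descriptions of 1 library against the other 2, with no replicate of #2. Rows outside the lists were left out of the split. Among them, Mir675 lies within the maternally expressed H19 but was highest in #2, at 22.9, 43.9 and 30.3 CPM in #1, #2 and #3. Also highest in #2 were AABR07065531.26 (3.58, 5.32 and 3.56 CPM) and an unnamed row beside it (9.42, 24.7 and 14.7 CPM), both between Dlk1 and Dio3. The fibroblast markers above were also highest in #2, and their part in this pattern was not tested.

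**Figure D4:**
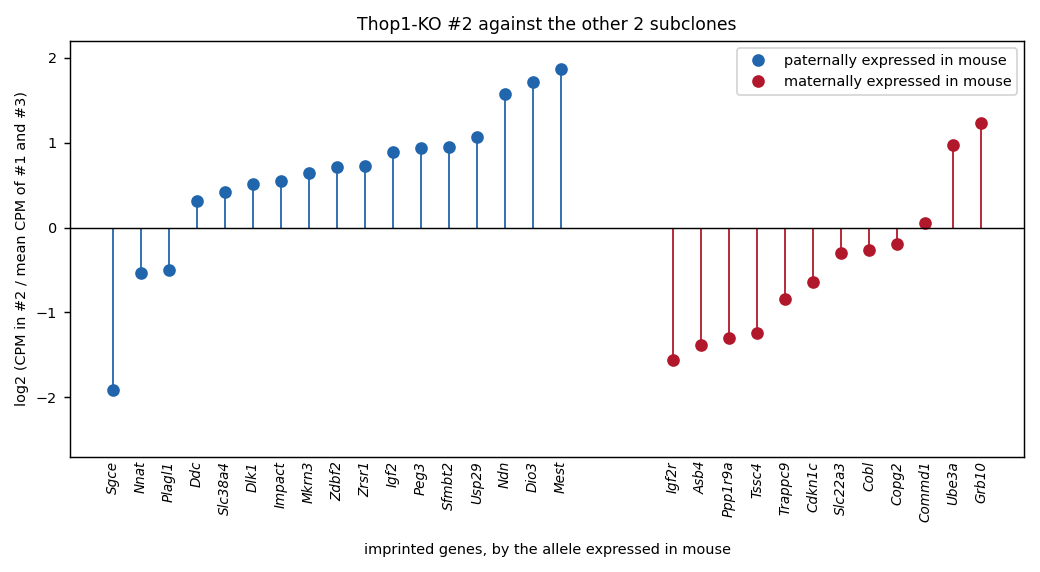
The log2 ratio of CPM in #2 to the mean CPM of #1 and #3, with 1 point for each listed imprinted gene. Genes are grouped by the parental copy expressed in mouse, which was not measured here, and sorted within groups. Of the paternally expressed genes 14 of 17 lie above 0, and of the maternally expressed genes 9 of 12 lie below 0.

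A locus described as PEG10 was lower in #2 than in the other subclones, as were Plagl1, Sgce and Nnat. The deposited table holds an unnamed row (chr4:29795494-29803098, plus strand) that starts 17455 bases past the end of Sgce, and its description names a PEG10 protein, a product of a retrotransposon-derived gene. It had 109, 17 and 88 counts in #1, #2 and #3 and 4 in WT. WT was lowest, but #2 lay far below the other subclones. The log2 fold change was 3.90 ± 1.32 (SE; adjusted p = 0.0931), and the locus was called by DESeq2 (adjusted p = 0.00606) and by edgeR without #2 (adjusted p = 0.000407). This row is outside the rule by gene name and was singled out after its values were seen.

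Of 25 partners within the imprinted clusters, 19 were in the table, 11 were tested and 1 rose (9.09%, beside 8.62% of all genes tested). It was Mkrn3, which lies beside Ndn and encodes a RING finger protein that holds back puberty. Mkrn3 had 61, 128 and 101 counts in #1, #2 and #3 against 15 in WT (log2 fold change 2.44 ± 0.63 SE, adjusted p = 0.0487). So in the Ndn cluster Mkrn3 was lowest in WT while Ndn was highest in WT. Mkrn3 was called in 5 of 12 alternatives, and the call was lost without #3 (adjusted p = 0.153), under upper quartile scaling (0.0571) or library size alone (0.0525), with 10 counts required in every library (0.0509) and in all 3 limma settings.

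Beside Igf2r, the transporter gene Slc22a3 had 7, 11 and 20 counts in #1, #2 and #3 against 2 in WT, a pooled ratio of 5.39 (95% counting interval 1.39 to 46.1), and was not called. Beside Peg3, the ubiquitin peptidase gene Usp29 had 7, 18 and 10 counts against 33 (log2 fold change -1.73, adjusted p = 0.157). Around the PEG10 locus the 3 partners took different courses. Sgce, encoding epsilon-sarcoglycan, had 66, 26 and 129 counts against 121, Ppp1r9a, encoding neurabin, had 160, 61 and 135 against 26, and Asb4 had 4, 4 and 17 against 0. Ppp1r9a had a log2 fold change of 1.96 (adjusted p = 0.103) and was called by DESeq2.

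Partners of Mest and Grb10 were not called. The coatomer gene Copg2 had a log2 fold change of 0.18 (95% interval -0.43 to 0.78), the decarboxylase gene Ddc 0.11 (-0.65 to 0.86) and the actin nucleator gene Cobl 0.19 (-0.39 to 0.76). In the Ndn region, the ubiquitin ligase gene Ube3a had 31, 114 and 85 counts against 88, and Snrpn had 3, 3 and 4 against 0. The table places Snrpn and Snurf, both under 5 counts, at chr1:195074330, far from Ndn at chr1:122981755.

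In the Dlk1 cluster a noncoding RNA fell. The gene at its end, Dio3, which encodes a deiodinase that inactivates thyroid hormone and is marked as a pseudogene in the table, had 146, 622 and 229 counts in #1, #2 and #3 against 249. Meg3, Rian, Mirg and Rtl1 were not found by name. Between Dlk1 and Dio3 the table had 107 rows, of which 5 were tested, all looked at after their values were seen. The lincRNA AABR07065531.26 (chr6:133667975-133676907, plus strand) had 60, 94 and 64 counts in #1, #2 and #3, and WT had 586. The 3 subclones were close together, and WT lay far above them. It fell by 3.24 on the log2 scale (SE 0.35, adjusted p = 0.00705) and was called under all 12 alternatives. A neighbouring unnamed row at chr6:133644998-133662371 had 158, 436 and 265 counts in #1, #2 and #3 against 407 (log2 fold change -0.75, adjusted p = 0.328). It was called only without #2, at -1.18 (adjusted p = 0.0150). Dlk1 itself was at 12 to 21 counts throughout.

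Of 21 further imprinted names, 17 were in the table in 18 rows and 13 rows were tested. None was called by edgeR, 3 had an unadjusted p under 0.05 (Commd1, Zdbf2 and Slc38a4), and DESeq2 called Zdbf2 higher and Slc38a4 lower. Zdbf2 had 73, 166 and 128 counts against 32, and Slc38a4, an amino acid transporter gene, 268, 336 and 225 against 519. Over all 33 imprinted genes tested, members included, 4 were higher, 0 lower and 29 not called, with a median log2 fold change of 0.19 (0.06 over all genes tested). The 12.1% called higher stands beside 8.62%, and the 12.1% called in either direction beside 13.8%, of all genes tested.

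In the IGF pathway, 2 genes of the receptor side rose in Thop1-KO. The ligand IGF2 signals through IGF1R and the insulin receptor, whose substrates pass the signal on. Of 7 receptor and substrate genes tested, 2 rose, 0 fell, and WT lay below all subclones for 6. Of all genes tested, 8.62% rose, 5.17% fell, and WT lay below all subclones for 38.1%. Igf1r had 510, 446 and 483 counts in #1, #2 and #3 against 172 (log2 fold change 1.25 ± 0.33 SE, adjusted p = 0.0498), at the edge of the threshold. Shc1, an adaptor that links such receptors to RAS, had 3246, 3285 and 3184 against 1165 (1.24 ± 0.24, adjusted p = 0.0254). The subclones agreed closely for both, yet both calls were lost without #3 (adjusted p = 0.200 and 0.112). The Igf1r call was lost under 8 of 12 alternatives. Insr had 29, 25 and 69 counts against 4 and was called by DESeq2 but not by edgeR (adjusted p = 0.0829).

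No change was called in the binding proteins that hold IGFs outside the cell. Of 6 genes tested, 0 were called by edgeR, 0 had an unadjusted p under 0.05 and DESeq2 called 0. The most abundant were Igfbp2, with 24847 to 30610 counts in the subclones and 20909 in WT (log2 fold change 0.16, 95% interval -0.34 to 0.65), and Igfbp4, with 7598 to 16373 against 10733 (-0.01, -1.01 to 0.98). Igfbp3, Igfbp5, Igfbp6 and Igfbp7 were at log2 fold changes of 0.89, 0.62, 0.71 and 0.66. The median of the 6 was 0.64, against 0.06 over all genes tested. The ligand genes Igf1 and Ins1 had too few counts to test.

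Among the 4 genes of IGF2 mRNA-binding proteins and of the Igf2-activating transcription factor PLAG1, 2 rose. The share that rose over all genes tested was 8.62%. Igf2bp1 had 4265, 3773 and 4440 counts in #1, #2 and #3 against 832 (log2 fold change 2.09 ± 0.27 SE, adjusted p = 0.00889), and Igf2bp3 had 762, 697 and 718 against 67 (3.20 ± 0.35, adjusted p = 0.00705). Both were far above WT with little spread among subclones, and both were called under all 12 alternatives. Igf2bp2 had 864, 1367 and 1256 counts against 1532 and was not called (log2 fold change -0.64, adjusted p = 0.176). Plag1 had 1, 3 and 13 counts against 0.

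Of 9 factors linked to imprints (the maintenance list), in 10 rows, 3 rose and 0 fell. Of all genes tested, 8.62% rose and 5.17% fell. Zfp57, which recognises the methylated hexamer shown in the sequences above, had 589, 544 and 436 counts in #1, #2 and #3 against 60 (log2 fold change 2.89 ± 0.41 SE, adjusted p = 0.0112). All subclones lay far above WT. Uhrf1, which brings the maintenance methyltransferase to replicated DNA, had 15372, 15054 and 15048 counts against 4917 (1.39 ± 0.22, adjusted p = 0.0148). Setdb1, a histone H3 methyltransferase recruited with ZFP57, had 1749, 1470 and 1856 against 544 (1.40 ± 0.29, adjusted p = 0.0278). Without #3, Zfp57 kept its call and Uhrf1 and Setdb1 did not (adjusted p = 0.0667 and 0.121).

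The 7 other rows were not called, although 6 of all 10 had an unadjusted p under 0.05, and without #2 edgeR called 4 higher and 1 lower. Over all genes tested, 5110 of 15028 had an unadjusted p under 0.05. Without #2, edgeR called 3096 of 14704 genes higher and 2476 lower. Zfp445, a zinc finger gene that acts beside Zfp57, had 47, 66 and 66 counts in #1, #2 and #3 against 19 (log2 fold change 1.41, 95% interval 0.09 to 2.73, adjusted p = 0.128). Dnmt3l, a cofactor of de novo methylation, had 27228, 28634 and 25307 against 35067 (-0.61, -1.06 to -0.15, adjusted p = 0.0795). Trim28, the corepressor that ZFP57 recruits, had 67186 to 71878 counts in the subclones and 69935 in WT (log2 fold change -0.25, 95% interval -0.66 to 0.16). Dnmt1, the maintenance methyltransferase, was at -0.13 (-0.63 to 0.36) and the insulator protein gene Ctcf at 0.01 (-0.62 to 0.63). Dppa3, which protects imprints in the zygote, had 10522, 10220 and 7101 counts against 3636 at its chromosome 4 row and was called by DESeq2 but not by edgeR (1.12, adjusted p = 0.0623). A second row of the same name on chromosome 3, with 79 to 112 counts, may share reads with it, so that both are uncertain.

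**Figure D5:**
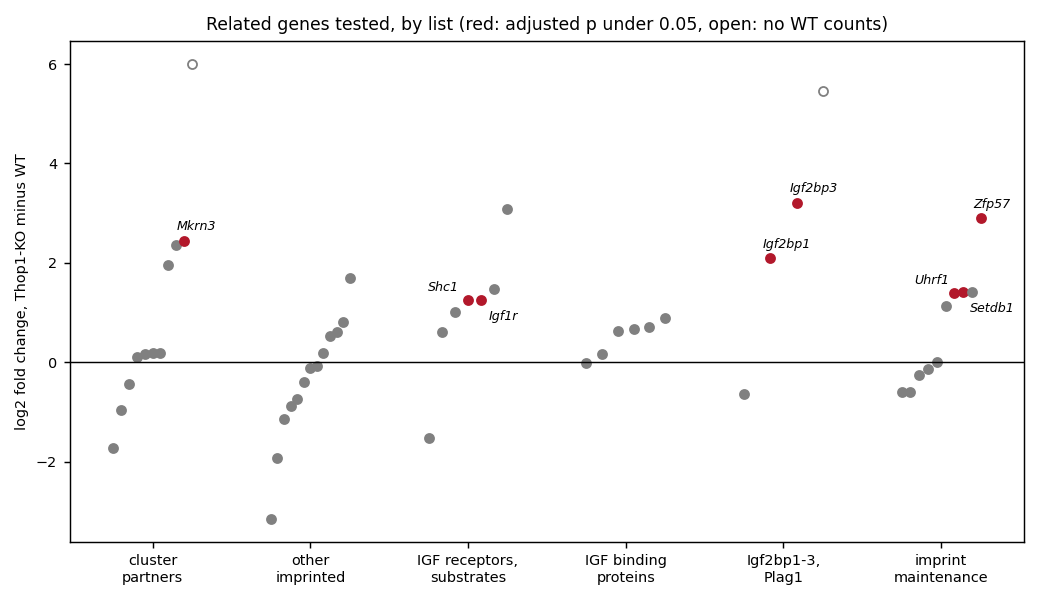
The log2 fold change of Thop1-KO over WT for the genes tested in 6 lists, 1 point for each gene, red where the adjusted p was under 0.05 and open where WT had no counts. The red points are Mkrn3, Igf1r, Shc1, Igf2bp1, Igf2bp3, Zfp57, Uhrf1 and Setdb1, all above 0. The log2 values of open points depend on a prior count and are no measured folds.

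The genes whose profile over the 4 libraries was nearest to that of Igf2 were Akt2, Zfp791, Shank1, Eml1 and S1pr3, by the Euclidean distance of log2 CPM after subtracting each gene's mean, over 12763 protein-coding genes. Akt2, a kinase downstream of insulin and IGF receptors, had 568, 1204 and 737 counts in #1, #2 and #3 against 154 in WT (distance 0.15), and Eml1, a microtubule-associated protein gene, had 157, 299 and 216 against 35 (distance 0.22). Both were picked for this likeness, which fixes their direction against WT. Zfp791, Shank1 and S1pr3 had at most 13 counts in any library and 0 in WT, so their likeness rests on few reads. Among the other members the nearest to Igf2 was Grb10 at a distance of 1.29 (rank 1512), and Igf2r was at 2.18 (rank 6425). With log2(FPKM + 1) in place of log2 CPM, 1 of the 5 nearest was shared, Akt2.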

How the data were processed

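RNA-seq of rat ESCs (1 WT and 3 Thop1-KO libraries, poly(A) RNA) was analysed. The authors deposited raw read counts per gene and FPKM, which scale counts by transcript length and library depth, made per the submitters' processing notes with HISAT2 2.0.5 and featureCounts 1.5.0-p3. The genome build and strand setting are not given in the sources used here. Counts were fitted with edgeR 4.0.16 (R 4.3.3): filterByExpr with a minimum count of 10, TMM scaling, and the quasi-likelihood test of Thop1-KO against WT with Benjamini-Hochberg adjustment over all genes. CPM use these scaled library sizes. DESeq2 1.42.0, limma 3.58.1 on log2(FPKM + pseudocount), other scalings and filters, and leaving out each subclone were alternatives. Named genes were all members, cluster partners with more than 3 counts in a library, other imprinted, IGF-axis and maintenance genes past the threshold, and the 5 genes nearest to Igf2, and exceptions are stated where they occur. Members, lists and tests were chosen with earlier results of these data known. Sequences are from RefSeq (GRCr8). Python 3.11.15 was used for sequences and figures.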

Additional observations from a re-analysis of the deposited data

How the results depend on the processing

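The control had 1 library, so no alternative tests its spread, and a low count such as that of Plagl1 in WT limits the size of a ratio. No paired analysis was possible, because there was 1 WT library and the labels pair it with no subclone. Of 99 member values over 12 alternatives, 87 kept their direction and their side of the threshold, 10 lost a call, 1 gained a call and 1 turned. The value that turned was Mest, at -0.54 without #2 and from -0.54 to 0.73 over the subclones left out, and the call gained was Ndn without #2. Igf2, Igf2r and Plagl1 stayed higher in Thop1-KO in every alternative that tested them, with log2 fold changes from counts of 1.97 to 2.56, 2.81 to 3.51 and 4.61 to 4.86. The number of members called higher was 0 with limma on log2(FPKM + 1), on log2(FPKM + 0.1) and without a filter, and ran from 0 to 3 with a subclone left out. The number called lower ran from 0 to 1. Over all genes, those higher were 1987 with DESeq2, 705 with limma on log2(FPKM + 1), 795 on log2(FPKM + 0.1) and 551 without a filter, and 354 to 3096 with a subclone left out. Those lower were 321 with limma on log2(FPKM + 0.1) and 103 to 2476 with a subclone left out. For these changes the cause was not tested. The named genes that are no members were put through the same alternatives after seeing the data. None of them turned in direction. Without #3, 4 of the 14 tested were called, namely Igf2bp1, Igf2bp3, Zfp57 and the lincRNA between Dlk1 and Dio3.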

Other observations

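Markers of other cell types were measured as well. Of 7 naive pluripotency markers tested, Esrrb (5537, 5064 and 5894 counts in #1, #2 and #3 against 237 in WT) and Tfcp2l1 (3881, 4485 and 5022 against 512) rose, with adjusted p = 0.00678 for both, while Pou5f1, Nanog, Sox2, Klf4 and Tbx3 were not called. Over all genes tested, 8.62% were higher, 5.17% were lower and 5110 of 15028 had an unadjusted p under 0.05. Without #2, 4 of the naive markers were called higher, as were 3096 of 14704 genes. Of 6 primitive endoderm markers tested, 0 were called by edgeR, 3 had an unadjusted p under 0.05 and DESeq2 called 0, and their summed level was under 10 CPM in every library. Of 2 trophoblast markers tested, 0 were called, 0 had an unadjusted p under 0.05 and DESeq2 called 0, whereas without #2 edgeR called 1 higher and 1 lower. The intestinal and trophectoderm regulator gene Cdx2 had 56, 634 and 89 counts in #1, #2 and #3 against 361 in WT. Of the 2 trophoblast markers tested, #2 was the highest subclone for 1, Cdx2. The summed level of the 6 trophoblast markers took another course, at 440, 209 and 296 CPM in #1, #2 and #3 and 164 CPM in WT. Of these 6, 4 had at most 3 counts in every library. The sum thus rests mainly on the tested marker other than Cdx2 and does not describe the list. Of 3 early differentiation markers tested, Nes, an intermediate filament gene of neural progenitors, fell (6, 13 and 3 counts against 126, adjusted p = 0.0147). The part of these markers in the values of the imprinted genes was not tested.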
